A study of Mus musculus with 12 samples.

Results

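The 29 genes described here encode the enzymes of cholesterol synthesis, the side branches that draw on the same isoprenoids, and the proteins that regulate the pathway through the transcription factor SREBP2. They were taken from a fixed list of symbols, in pathway order. All 29 were present in each of the 12 files and all 29 passed the filter on low counts, among 12148 genes tested and 16145 listed in at least 1 file. RNA was sequenced from mouse bone marrow-derived macrophages, which are marrow cells grown for 7 days with the growth factor M-CSF, in 4 groups of 3 libraries. The 4-OI group was wild-type (WT) cells given 120 µM 4-octyl itaconate, a cell-permeable ester of the metabolite itaconate, and left for 15 h. The hemin group was WT cells given 15 µM hemin, the oxidised form of heme, for 12 h. The Irg1KO vehicle group was cells of mice lacking Irg1 (the gene now called Acod1, whose product forms itaconate), and it was given vehicle for 12 h. The WT vehicle group was WT cells under the same vehicle for 12 h. The 4-OI cells therefore had a longer exposure than their vehicle, and the compound and the hours cannot be told apart. The labels do not say whether replicates came from separate mice or cultures, so p-values measure the spread between these libraries, which may be technical.

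Cells make cholesterol from acetyl-CoA. The mevalonate arm joins acetyl-CoA units and turns them into isoprenoid diphosphates, and farnesyl diphosphate then goes either to squalene and the sterol rings or to prenyl and dolichol chains. When sterols in the endoplasmic reticulum run low, SCAP carries SREBP2 to the Golgi, where the proteases encoded by Mbtps1 and Mbtps2 release the part that enters the nucleus and raises transcription of the pathway. When sterols are plentiful, INSIG1 and INSIG2 hold SCAP back. Macrophages take up much cholesterol from dead cells and lipoproteins, and the pathway is known to respond to that load and to inflammatory signals.

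Library totals were 9405112 to 22390882 expected counts, and the 29 genes together took 0.2621 to 0.2693% of them in 4-OI libraries, 0.1597 to 0.1611% in hemin libraries, 0.193 to 0.1943% in Irg1KO libraries and 0.1846 to 0.1927% in WT vehicle libraries. Acod1, the gene deleted, had 300, 240 and 333 expected counts in Irg1KO libraries, against 462, 705 and 286 in WT vehicle libraries, so its count did not separate the genotypes (log2 fold change -0.48, SE 0.26, adjusted p = 0.194). The deposited transcript length of Acod1 did separate them, at 3132 to 3382 nt in Irg1KO libraries, against 2635 to 2653 nt in WT vehicle libraries and 2594 to 2633 nt in the other WT libraries. The group is taken from the label. The 7 macrophage markers, with Csf1r and Adgre1 among them, summed to 25136 to 26866 CPM (TMM-normalised counts, scaled to a common library size) in 4-OI, 23683 to 25939 in hemin, 22049 to 25031 in Irg1KO and 22636 to 23322 CPM in WT vehicle libraries. Most of that sum was Lyz2. In Irg1KO libraries Csf1r was lower (-0.22, adjusted p = 0.000332) and Adgre1 higher (0.33, adjusted p = 2.85e-06) than in WT vehicle libraries. With 4-OI, 2 of the 7 were higher than with vehicle (Itgam 0.25, Lyz2 0.22) and 1 lower (Fcgr1 -0.34). With hemin, 3 were higher (Csf1r 0.15, Cd68 0.14, Itgam 0.19) and 1 lower (Fcgr1 -0.22). Adipocyte markers reached at most 0.284 CPM in any library, with Lep at 0 throughout.

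The promoters of 6 members are shown because they span the kinds of change described below. They are Hmgcs1, which differed in every comparison, Mvd, Cyp51 and Nsdhl, which were higher with 4-OI, and Lbr, which went the other way. Insig1, whose product holds SCAP back when sterols are plentiful, completes the set. Each run is the 250 bases before the RefSeq start of the gene, in build GRCm38.p6, read 5′ to 3′ along the gene. The files were made on another build, GRCm39, so these positions are not those of the files. The windows are chr13:119690101-119690350 on the plus strand (Hmgcs1), chr8:122443423-122443672 on the minus strand (Mvd), chr5:4104698-4104947 on the minus strand (Cyp51), chr1:181842402-181842651 on the minus strand (Lbr), chrX:72918271-72918520 on the plus strand (Nsdhl) and chr5:28071162-28071411 on the plus strand (Insig1). Capitals mark the sterol regulatory element TCACNCCAC, the site SREBP proteins bind, and the CCAAT box, bound by the factor NF-Y, written CCAAT or ATTGG by strand.
Hmgcs1: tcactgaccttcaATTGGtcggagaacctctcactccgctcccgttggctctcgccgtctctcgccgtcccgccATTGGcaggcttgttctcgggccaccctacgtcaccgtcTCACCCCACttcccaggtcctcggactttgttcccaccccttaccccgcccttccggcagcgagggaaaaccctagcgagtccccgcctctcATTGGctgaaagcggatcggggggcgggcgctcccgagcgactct
Mvd: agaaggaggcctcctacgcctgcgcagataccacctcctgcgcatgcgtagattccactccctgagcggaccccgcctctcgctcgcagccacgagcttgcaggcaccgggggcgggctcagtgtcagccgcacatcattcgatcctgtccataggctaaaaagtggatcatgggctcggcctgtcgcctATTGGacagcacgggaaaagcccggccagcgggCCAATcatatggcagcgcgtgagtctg
Cyp51: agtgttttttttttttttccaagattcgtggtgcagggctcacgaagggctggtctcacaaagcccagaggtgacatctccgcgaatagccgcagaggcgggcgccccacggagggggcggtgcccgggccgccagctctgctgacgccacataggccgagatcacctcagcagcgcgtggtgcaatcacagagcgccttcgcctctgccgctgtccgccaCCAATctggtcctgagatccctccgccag
Lbr: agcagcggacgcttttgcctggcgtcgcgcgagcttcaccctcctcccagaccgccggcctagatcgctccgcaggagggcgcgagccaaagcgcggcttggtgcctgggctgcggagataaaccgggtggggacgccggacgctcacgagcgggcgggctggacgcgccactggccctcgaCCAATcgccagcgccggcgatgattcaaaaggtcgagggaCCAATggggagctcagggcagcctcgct
Nsdhl: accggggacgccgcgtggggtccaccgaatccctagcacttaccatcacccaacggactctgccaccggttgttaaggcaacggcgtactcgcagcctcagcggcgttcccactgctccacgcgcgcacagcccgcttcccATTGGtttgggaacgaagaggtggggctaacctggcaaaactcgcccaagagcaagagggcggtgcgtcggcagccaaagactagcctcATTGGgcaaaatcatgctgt
Insig1: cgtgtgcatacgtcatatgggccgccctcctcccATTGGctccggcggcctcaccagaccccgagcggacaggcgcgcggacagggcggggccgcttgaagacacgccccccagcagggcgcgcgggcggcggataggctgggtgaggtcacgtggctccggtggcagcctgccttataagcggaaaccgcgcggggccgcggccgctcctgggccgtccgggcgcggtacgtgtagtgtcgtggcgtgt

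Of the 29 members, 25 were in the RefSeq promoter table, and Fdps, Fdft1, Sqle and Stard4 were not. A CCAAT box on either strand lay in the windows of 21 of 25 members, or 84.0%, against 41.0% of the 9697 tested genes in the table and 37.5% of all 27025 genes there. At least 2 CCAAT boxes lay in 14 of 25 members (56.0%), against 15.4% of tested genes. The 4 members without one were Acat2, Scap, Mbtps1 and Mbtps2. The sterol element TCACNCCAC matched in 1 member (4.0%), Hmgcs1, at bases 137 to 129 before its start, against 1.21% of tested genes. Its core CACNCCAC, which is contained in the longer element, matched in 3 members (12.0%), Acat2, Hmgcs1 and Insig1, against 6.52% of tested genes. The antioxidant response element TGACNNNGC, the site of NRF2, matched in 3 members (12.0%), Mvk, Pmvk and Dhcr7, against 1358 of 9697 tested genes. These are matches of letters in a window and not measured binding, and the member that was lower with 4-OI, Lbr, holds 2 CCAAT boxes as Mvd and Nsdhl do.

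**Figure D1:**
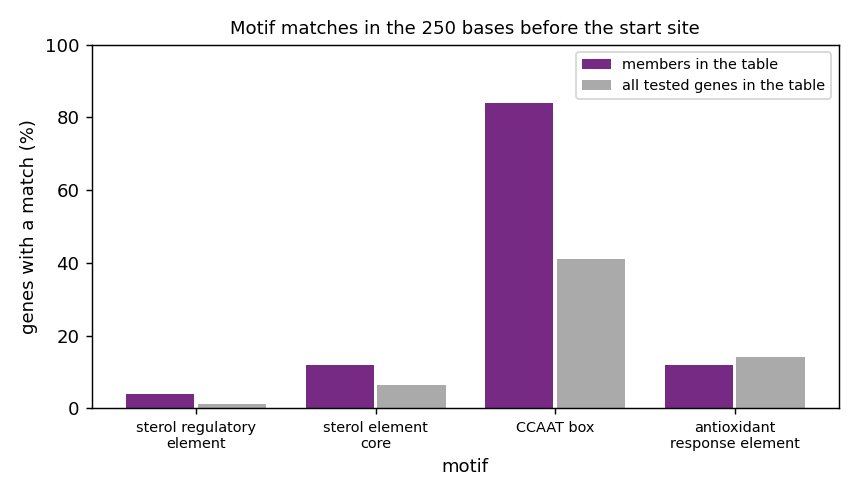
Percentage of genes with at least 1 match to each of 4 motifs (x axis) in the 250 bases before the start. Bars are for the 25 members in the RefSeq table beside the tested genes there. The CCAAT box is at 84.0% in members and 41.0% in tested genes, while the antioxidant response element is at 12.0% in members and in 1358 of 9697 tested genes.

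Levels can be compared between genes only per transcript length, as FPKM (counts over transcript length and library total, mean ± SD, n = 3 in each group). In WT vehicle libraries the highest members were Msmo1, a sterol methyl oxidase, at 59.8 ± 0.70 FPKM and Fdps, which makes farnesyl diphosphate, at 58.1 ± 2.1 FPKM, and these 2 did not differ beyond their spread. Nus1, Fdft1 and Srebf2 followed at 40.1 ± 1.4, 39.6 ± 2.2 and 38.7 ± 2.3 FPKM, again within their spread. The lowest were Hsd17b7 at 7.11 ± 0.17, Ggps1 at 6.74 ± 0.72, Lss at 5.63 ± 0.10 and Tm7sf2 at 2.88 ± 0.20 FPKM. In 4-OI libraries Fdps stood first at 152 ± 11 FPKM, above Msmo1 at 94.9 ± 2.8 FPKM. By mean FPKM, 24 of 29 members were highest in 4-OI libraries, 0 in hemin libraries, 1 in Irg1KO libraries (Mbtps1) and 4 in WT vehicle libraries (Dhdds, Lbr, Ebp and Mbtps2). The lowest of the 4 means was in hemin libraries for 21 members, in Irg1KO libraries for 4, in 4-OI libraries for 2 (Lbr and Mbtps1) and in WT vehicle libraries for 2 (Ggps1 and Insig2). FPKM carry no TMM scaling, and some orders depend on it. Mbtps1 was at 22.87 ± 0.110 FPKM with 4-OI and 22.89 ± 1.60 FPKM with hemin, within its spread. In CPM, 4-OI means exceeded WT vehicle means for Mbtps1 (102 against 96.1) and Mbtps2 (66.5 against 60.3).

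**Figure D2:**
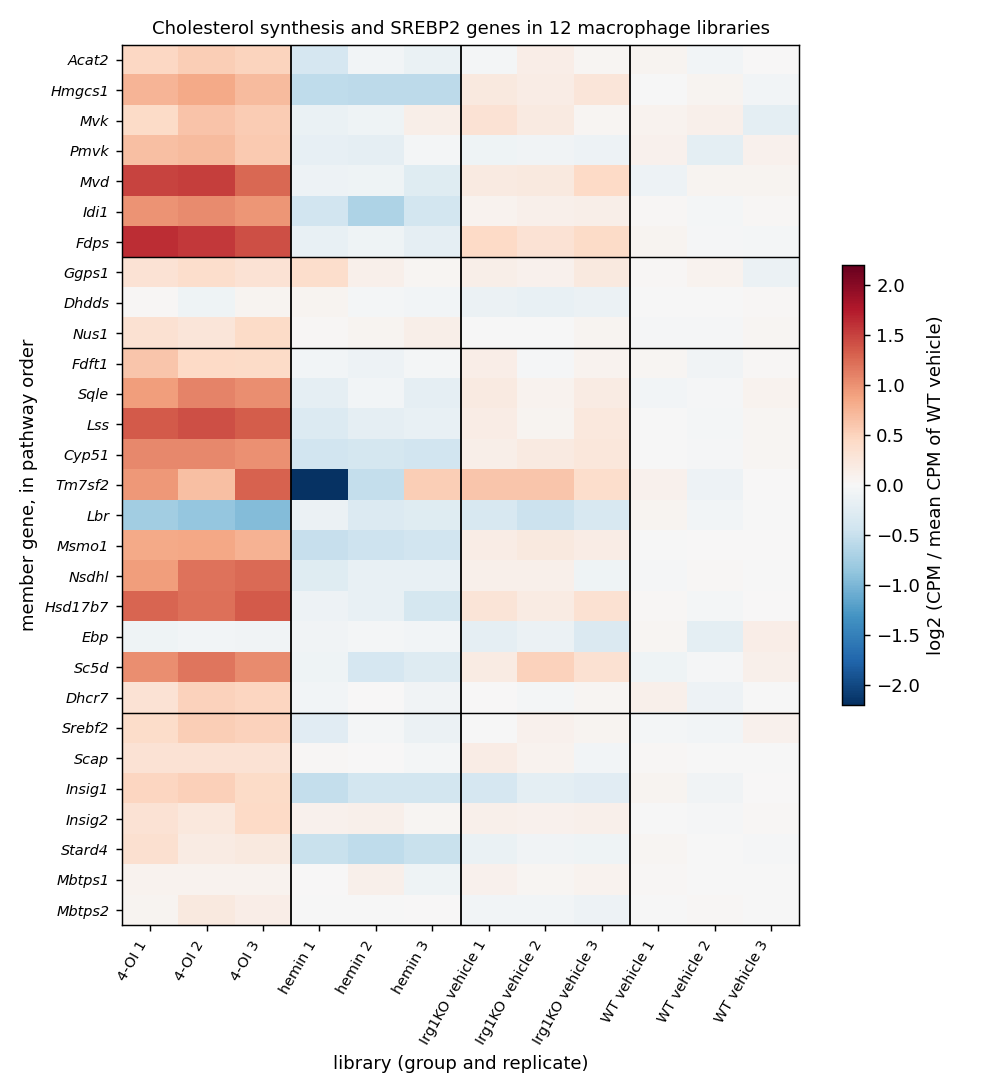
Level of the 29 members in each of the 12 libraries, as log2 of CPM over the mean of the WT vehicle libraries, in pathway order down the page. The 4-OI columns are red for most rows and blue for Lbr, the hemin columns are mostly pale blue, and Tm7sf2 differs most between libraries of a group.

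The 4-OI libraries were compared with WT vehicle to see what this itaconate ester changed. Almost the whole pathway was higher with 4-OI: 25 of 29 members rose, 1 fell and 3 did not pass the test, where a pass is an adjusted p under 0.05 by the edgeR quasi-likelihood test with Benjamini-Hochberg adjustment over all tested genes. Of all tested genes 50.4% passed, 25.4% as higher and 25% as lower. The median log2 fold change was 0.50 over the members and -0.0031 over all tested genes. Of the members 9 were at least 2-fold higher, as were 3.64% of tested genes, and 0 were at least 2-fold lower, as were 4.31%. The 3 libraries of each group did not overlap for 27 of 29 members, against 56.5% of tested genes. The summed level of the members was 2802 ± 31.4 CPM in 4-OI libraries and 1824 ± 33.3 CPM in WT vehicle libraries (SD, n = 3 each). In these bulk libraries, fewer cells of a type and less RNA per cell cannot be told apart.

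All 7 enzymes from acetyl-CoA to farnesyl diphosphate rose, by 0.50 to 1.53 on the log2 scale. Fdps, at the branch point of the pathway, had 198, 189 and 172 CPM in 4-OI libraries, against 67.6, 63.5 and 62.8 CPM in WT vehicle libraries. Every 4-OI library was far above every vehicle library, and this was the largest change of any member (log2 fold change 1.53, SE 0.06, adjusted p = 2.2e-23). Mvd, the decarboxylase that makes isopentenyl diphosphate, had 48.4, 49.9 and 41.8 CPM with 4-OI, against 15.97, 18.03 and 18.01 CPM with vehicle (1.44, SE 0.08, adjusted p = 3.67e-17). Its lowest 4-OI library was still more than double its highest vehicle library. Idi1, which isomerises isopentenyl diphosphate, averaged 185 ± 4.06 CPM with 4-OI and 92.6 ± 2.48 CPM with vehicle, a log2 fold change of 1.00 (SE 0.05). The steps before Mvd moved less: Hmgcs1, the HMG-CoA synthase, by 0.76 (SE 0.05), the kinases Pmvk by 0.67 (SE 0.10) and Mvk by 0.52 (SE 0.10), and Acat2, the thiolase that joins acetyl-CoA, by 0.50 (SE 0.07).

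The side branches moved little. Ggps1, which lengthens farnesyl to geranylgeranyl diphosphate, rose by 0.34 (SE 0.08, adjusted p = 0.000651), and so did Nus1, a subunit of the enzyme that builds dolichol, by 0.34 (SE 0.05, adjusted p = 2.56e-07). Dhdds, the catalytic subunit of the same dolichol enzyme, was at 60.5 ± 3.58 CPM in 4-OI libraries and 60.5 ± 0.745 CPM in WT vehicle libraries, with an adjusted p of 0.973. The FPKM of Fdps over that of Ggps1 was 19.4 ± 1.64 in 4-OI libraries and 8.69 ± 0.997 in WT vehicle libraries. So the enzyme at the branch point stood higher over its branch with 4-OI, without overlap between the groups. The same ratio was 10.5 ± 0.426 in Irg1KO libraries and 6.73 ± 0.605 in hemin libraries.

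Of the 12 enzymes from squalene to cholesterol, 10 rose, 1 fell and 1 did not pass. Lss, which closes squalene epoxide into the first sterol, had 75.2, 78.9 and 74.8 CPM with 4-OI, against 29.4, 28.97 and 30.6 CPM with vehicle (log2 fold change 1.37, SE 0.06, adjusted p = 6.16e-20). Hsd17b7, a sterol ketoreductase, had 75.5, 71.4 and 79.0 CPM with 4-OI, against 31.5, 30.2 and 31.2 CPM with vehicle (1.28, SE 0.07, adjusted p = 2.97e-18). Both were more than double in every 4-OI library. Nsdhl, the sterol dehydrogenase that works beside Hsd17b7, had 43.3, 52.2 and 54.1 CPM with 4-OI, against 22.6, 23.5 and 22.7 CPM with vehicle (1.11, SE 0.08, adjusted p = 1.31e-14). Sc5d, the desaturase near the end of the pathway, had 61.1, 67.9 and 61.6 CPM with 4-OI, against 28.2, 29.4 and 32.6 CPM with vehicle (1.09, SE 0.08, adjusted p = 2.3e-14). Neither gene had overlapping groups. Cyp51, the lanosterol demethylase, rose by 1.04, Sqle, the squalene epoxidase, by 1.02, and Msmo1 by 0.82, each with SE 0.05. The ends of this arm moved less, with Fdft1, the squalene synthase, up by 0.49 (SE 0.05) and Dhcr7, the reductase of the last step, by 0.44 (SE 0.07). Ebp, a sterol isomerase, averaged 43.4 ± 0.455 CPM with 4-OI and 45.7 ± 5.76 CPM with vehicle and did not pass (-0.06, SE 0.07, adjusted p = 0.515).

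Lbr and Tm7sf2 encode reductases of the same sterol double bond, and Lbr also anchors chromatin at the inner nuclear membrane. They are set side by side here after their values were seen. Lbr had 40.9, 38.5 and 35.7 CPM in 4-OI libraries, against 72.4, 66.5 and 68.9 CPM in WT vehicle libraries. It was the only member that fell, with no overlap between the groups (log2 fold change -0.85, SE 0.07, adjusted p = 1.3e-13). Tm7sf2 had 7.36, 6.04 and 9.34 CPM with 4-OI, against 4.05, 3.55 and 3.85 CPM with vehicle (0.97, SE 0.36, adjusted p = 0.0465). This call and that of Mbtps2 were the least firm of the 26. That of Tm7sf2 passed in 5 of the 15 alternative settings, and of the fits with a library left out it passed only without 4-OI replicate 2 (0.81 to 1.12 over all 6). Tm7sf2 counts were estimates shared with other transcripts, whole in 0 of 12 libraries and as low as 8.43. Acat2, Hmgcs1 and Mbtps2 counts were whole in only 0, 1 and 3 libraries, with lowest counts of 258, 702 and 562. The ratio of Tm7sf2 to Lbr in FPKM was 0.504 ± 0.138 in 4-OI libraries and 0.140 ± 0.00378 in WT vehicle libraries. It was 0.268 ± 0.0311 in Irg1KO libraries, also above WT vehicle without overlap, and 0.134 ± 0.105 in hemin libraries.

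The regulators that passed rose by 0.14 to 0.49 on the log2 scale. Srebf2, which encodes SREBP2 and is a target of it, had 231, 252 and 249 CPM in 4-OI libraries, against 169.6, 168 and 185 CPM in WT vehicle libraries. All 3 were above the vehicle range (log2 fold change 0.49, SE 0.05, adjusted p = 6.34e-10). Insig1, whose transcript is a classical SREBP2 target, had 109, 113 and 106 CPM with 4-OI, against 82.8, 75.1 and 79.4 CPM with vehicle (0.47, SE 0.06, adjusted p = 4.39e-09). Insig2, its relative, had 37.7, 35.6 and 41.2 CPM with 4-OI, against 30.3, 29.7 and 31.0 CPM with vehicle (0.33, SE 0.07, adjusted p = 0.000162). Neither INSIG gene had overlapping groups. Stard4, a soluble carrier of cholesterol between membranes, had 111, 99.2 and 102 CPM with 4-OI, against 89.5, 86.7 and 85.3 CPM with vehicle (0.25, SE 0.05, adjusted p = 0.000135). Scap rose by 0.32 (SE 0.06) and Mbtps2 by 0.14 (SE 0.06, adjusted p = 0.0365, passing in 5 of 15 alternatives and, with a library left out, only without 4-OI replicate 1), while Mbtps1 did not pass (0.08, SE 0.05, adjusted p = 0.193). On log2(FPKM + 1) with limma-trend, which adds no scaling beyond the library total and puts the median of all genes at -0.105, Stard4 no longer passed (0.11, adjusted p = 0.0998), Mbtps2 was at -0.013, and Ebp (-0.20, adjusted p = 0.0343) and Dhdds (-0.14, adjusted p = 0.0379) were called lower. Still higher but by less were Dhcr7 (0.28), Insig2 (0.20), Ggps1 (0.19), Nus1 (0.19) and Scap (0.16). All tested genes were then split into 1743 higher and 4608 lower, against 3083 and 3043 by the edgeR test.

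Markers of other cell types moved with 4-OI. Stromal markers were mixed, with 2 of 7 tested higher and 1 lower. They summed to 1929 to 2129 CPM in 4-OI libraries and 1701 to 2098 CPM in WT vehicle libraries. Neutrophil markers summed to 338 to 361 CPM in 4-OI libraries, against 83.7 to 94.2 CPM in WT vehicle libraries, with 2 of 5 tested markers higher and Ly6g at 0. Most of that sum was Mmp8, at 313 ± 16.7 CPM with 4-OI and 79.5 ± 5.30 CPM with vehicle. S100a8 also rose, while S100a9, Ngp and Ltf did not pass. Endothelial markers summed to 7.67 to 8.80 CPM with 4-OI, against 33.3 to 38.4 CPM with vehicle, with 2 of 3 tested markers lower. Most of that sum was Kdr, at 4.98 ± 0.470 CPM with 4-OI and 28.6 ± 2.08 CPM with vehicle, and Pecam1 did not pass. The part of these lists in the members' change was not tested.

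**Figure D3:**
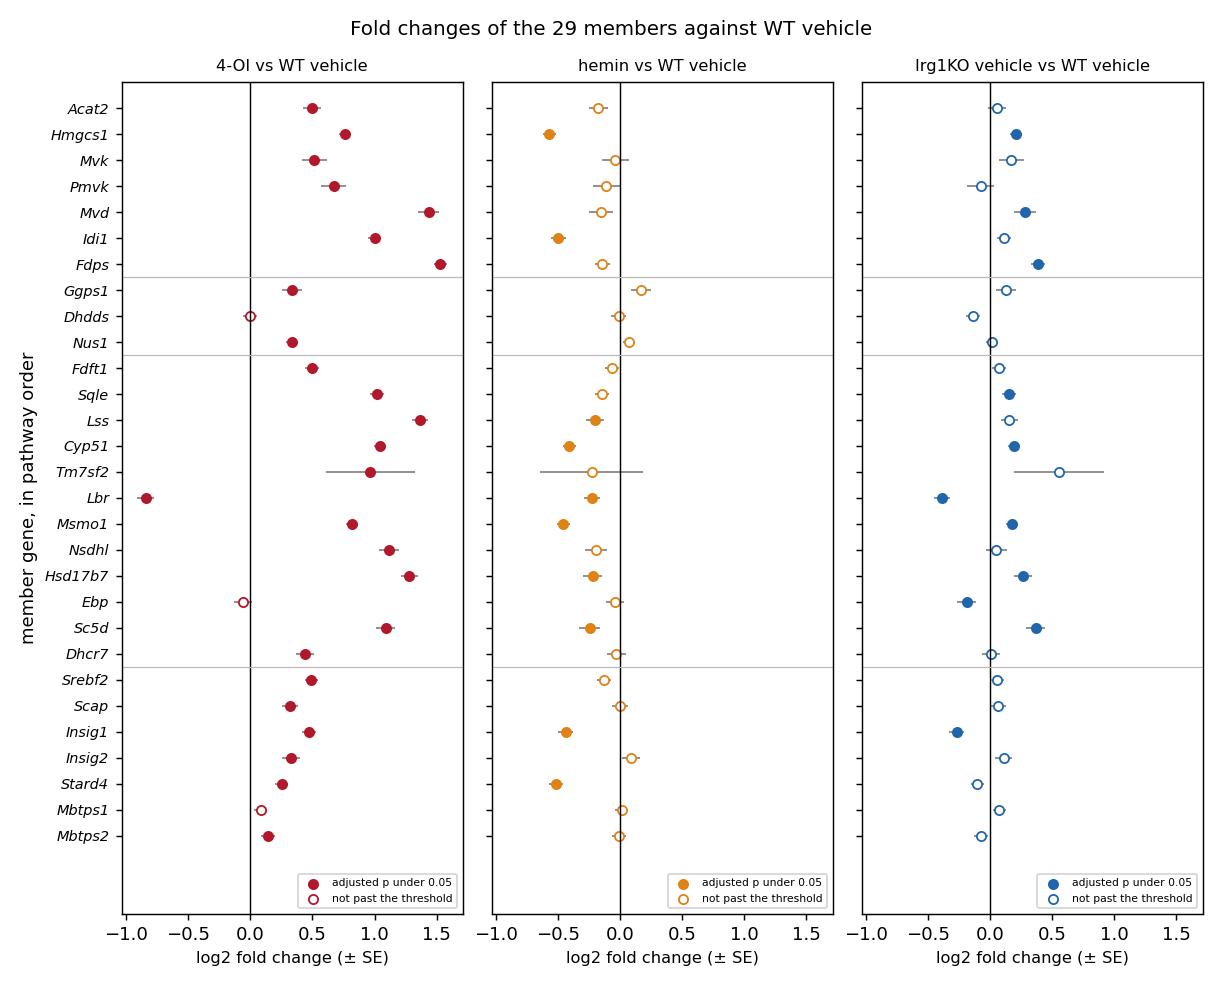
Log2 fold change (x axis, ± SE) of each member in the 3 comparisons with WT vehicle, in pathway order down the page, with filled points for members that passed at an adjusted p under 0.05. With 4-OI the points lie right of 0 except Lbr at -0.85 and a few near 0, with hemin no filled point lies right of 0, and in Irg1KO the filled points lie on both sides.

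Hemin, which brings iron and heme into macrophages, was compared with WT vehicle at equal hours. Cholesterol synthesis was modestly lower: 10 of 29 members fell, 0 rose and 19 did not pass, where 7.74% of all tested genes fell, 9.48% rose and 17.2% passed in either direction. The median log2 fold change was -0.15 over the members and -0.0060 over all tested genes. At an unadjusted p under 0.05, 16 members passed, Ggps1 alone among them with a higher mean, and 25 of 29 members had a negative fold change. No member was 2-fold changed, as were 0.634% of tested genes upward and 0.37% downward, and the groups did not overlap for 15 members, against 30.7% of tested genes. The summed level of the members was 1607 ± 11.1 CPM in hemin libraries and 1824 ± 33.3 CPM in WT vehicle libraries. Endothelial markers summed to 15.8 to 16.9 CPM with hemin, against 33.3 to 38.4 CPM with vehicle, with 1 of 3 tested markers lower (Kdr, -1.38, adjusted p = 2.94e-14). Neutrophil markers summed to 95.2 to 105 CPM with hemin, against 83.7 to 94.2 CPM with vehicle, with 1 of 5 tested higher (Mmp8, 0.20, adjusted p = 0.00937). The part of either in the members' change was not tested.

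The 6 members with the largest change were spread over the pathway. Hmgcs1 had 74.5, 73.6 and 73.2 CPM in hemin libraries, against 108, 114 and 105 CPM in WT vehicle libraries (log2 fold change -0.57, SE 0.05, adjusted p = 1.42e-10). Stard4 had 62.0, 58.9 and 62.0 CPM with hemin, against 89.5, 86.7 and 85.3 CPM with vehicle (-0.52, SE 0.06, adjusted p = 6.24e-09). For both genes the hemin libraries lay close together and well below every vehicle library. Idi1 had 69.1, 57.8 and 69.8 CPM with hemin, against 93.8, 89.8 and 94.3 CPM with vehicle (-0.50, SE 0.06, adjusted p = 3.27e-08). Msmo1 had 69.5, 71.2 and 73.0 CPM with hemin, against 97.3, 98.9 and 98.2 CPM with vehicle (-0.46, SE 0.05, adjusted p = 9.37e-09). Neither overlapped between groups. Insig1 had 54.8, 59.8 and 59.5 CPM with hemin, against 82.8, 75.1 and 79.4 CPM with vehicle (-0.44, SE 0.06, adjusted p = 5.03e-07). Cyp51 had 62.1, 63.5 and 62.1 CPM with hemin, against 82.4, 81.8 and 85.9 CPM with vehicle (-0.41, SE 0.05, adjusted p = 2.23e-07). These 6 genes passed in each of the 15 alternative settings.

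The other 4 that fell, Sc5d (-0.25), Lbr (-0.23), Hsd17b7 (-0.22) and Lss (-0.20), were smaller and less firm. Without a single library the adjusted p of Lbr was 0.0617 without WT vehicle replicate 1 and 0.0652 without hemin replicate 2. Lss passed in 6 of 15 alternatives, Hsd17b7 in 9 and Sc5d in 10. Lss lost its call without any single library (-0.23 to -0.17), Hsd17b7 without any 1 of the 3 WT vehicle replicates (-0.24 to -0.21), and Sc5d without WT vehicle replicate 2 (-0.26) or 3 (-0.19) or hemin replicate 2 (-0.19) or 3 (-0.24). Without hemin replicate 3, Hsd17b7 was at -0.14 (adjusted p = 0.333). The 2 enzymes with the largest rise with 4-OI did not pass here, Fdps at 58.4 ± 2.01 CPM with hemin and 64.6 ± 2.58 CPM with vehicle (-0.15, adjusted p = 0.0876, groups without overlap) and Mvd at 15.6 ± 0.976 CPM with hemin and 17.3 ± 1.18 CPM with vehicle (-0.15, adjusted p = 0.311). Sqle, at -0.15 (adjusted p = 0.0711), passed without hemin replicate 2 (-0.20, adjusted p = 0.0347). Srebf2 had 146, 169 and 160.1 CPM with hemin, against 169.6, 168 and 185 CPM with vehicle, groups that overlap (-0.13, SE 0.05, adjusted p = 0.0916), and without hemin replicate 2 it passed (-0.18, adjusted p = 0.0314). Insig2 had 32.3, 32.9 and 31.2 CPM with hemin, against 30.3, 29.7 and 31.0 CPM with vehicle, and did not pass although the groups did not overlap (0.09, SE 0.07, adjusted p = 0.468). The FPKM of Insig1 over Insig2 was 1.76 ± 0.0992 in hemin libraries and 2.55 ± 0.0964 in WT vehicle libraries. It was 1.94 ± 0.127 in Irg1KO libraries, also below WT vehicle without overlap, and 2.76 ± 0.266 in 4-OI libraries. Tm7sf2 varied widely, at 0.848, 2.66 and 5.56 CPM with hemin, against 4.05, 3.55 and 3.85 CPM with vehicle (-0.23, adjusted p = 0.783), and without hemin replicate 3 it passed at -0.997 (adjusted p = 0.0159). On log2(FPKM + 1), 15 members passed as lower, and all tested genes were split into 621 higher and 1422 lower, against 1152 and 940 by the edgeR test.

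The libraries labelled Irg1KO were compared with WT vehicle to see what differs without added compound. The change of the pathway was small and mixed: 8 of 29 members rose, 3 fell and 18 did not pass, where 23.5% of all tested genes rose, 16.3% fell and 39.8% passed in either direction. The members' share that passed was thus near that of all genes. At an unadjusted p under 0.05, 14 members passed, and 22 of 29 members had a positive fold change. The median log2 fold change was 0.07 over the members and -0.0003 over all tested genes, and 0 members were 2-fold changed, as were 11.5% of tested genes upward and 0.428% downward. The groups did not overlap for 18 members, against 49.7% of tested genes. The summed level of the members was 1903 ± 15.8 CPM in Irg1KO libraries and 1824 ± 33.3 CPM in WT vehicle libraries. Stromal markers moved with the genotype, at a sum of 10261 to 11502 CPM in Irg1KO libraries, against 1701 to 2098 CPM in WT vehicle libraries, with all 7 tested of 9 listed higher (median 2.29). Neutrophil markers summed to 41.6 to 45.6 CPM in Irg1KO libraries, against 83.7 to 94.2 CPM in WT vehicle libraries, with 3 of 5 tested lower and 1 higher. Endothelial markers summed to 29.3 to 32.4 CPM in Irg1KO libraries, against 33.3 to 38.4 CPM in WT vehicle libraries, with 1 of 3 tested lower. The part of any of these in the members' change was not tested.

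Among the members that passed, Lbr and Fdps had the largest changes, of about the same size. Tm7sf2 had a larger one and did not pass (0.55, SE 0.36, adjusted p = 0.267). Lbr had 54.2, 50.02 and 54.6 CPM in Irg1KO libraries, against 72.4, 66.5 and 68.9 CPM in WT vehicle libraries (log2 fold change -0.39, SE 0.06, adjusted p = 2.8e-06). Fdps had 87.2, 80.8 and 86.1 CPM in Irg1KO libraries, against 67.6, 63.5 and 62.8 CPM in WT vehicle libraries (0.39, SE 0.06, adjusted p = 5.54e-07). For both genes every knockout library lay outside the vehicle range. Sc5d had 34.1, 42.7 and 38.1 CPM in Irg1KO libraries, against 28.2, 29.4 and 32.6 CPM in WT vehicle libraries (0.37, SE 0.08, adjusted p = 0.000305). Mvd had 20.0, 20.1 and 23.4 CPM in Irg1KO libraries, against 15.97, 18.03 and 18.01 CPM in WT vehicle libraries (0.28, SE 0.09, adjusted p = 0.0115). Sc5d and Mvd were separated by narrower gaps, and Mvd did not pass without Irg1KO replicate 3 (0.20, adjusted p = 0.0992) or without WT vehicle replicate 1 (0.22, adjusted p = 0.0798). Insig1 had 61.2, 68.2 and 66.8 CPM in Irg1KO libraries, against 82.8, 75.1 and 79.4 CPM in WT vehicle libraries (-0.27, SE 0.06, adjusted p = 0.000186). Hsd17b7 had 37.9, 34.9 and 39.1 CPM in Irg1KO libraries, against 31.5, 30.2 and 31.2 CPM in WT vehicle libraries (0.27, SE 0.07, adjusted p = 0.00272). Neither overlapped between genotypes.

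Hmgcs1 rose by 0.21, Cyp51 by 0.19, Msmo1 by 0.18 and Sqle by 0.15. Sqle passed although its groups overlapped (adjusted p = 0.0286). It passed in 6 of 15 alternatives and lost its call without WT vehicle replicate 1 (0.12) or 2 (0.13) or Irg1KO replicate 1 (0.13) or 3 (0.14). Ebp, whose groups overlapped and which was called lower (-0.19, SE 0.07, adjusted p = 0.0343), lost its call without any of 4 libraries: WT vehicle replicate 1 (-0.16), WT vehicle replicate 3 (-0.13), Irg1KO replicate 1 (-0.20) and Irg1KO replicate 3 (-0.15). Without WT vehicle replicate 2, Ebp was at -0.31. Lss, at 0.15 (adjusted p = 0.0725), passed without Irg1KO replicate 2 (0.20, adjusted p = 0.0435), and Dhdds, at -0.14 (adjusted p = 0.0555), passed with RLE factors (adjusted p = 0.0220). Srebf2 had 174, 186 and 181 CPM in Irg1KO libraries, against 169.6, 168 and 185 CPM in WT vehicle libraries, overlapping groups that did not pass (0.05, SE 0.05, adjusted p = 0.451). Insig2 had 32.8, 32.2 and 32.9 CPM in Irg1KO libraries, against 30.3, 29.7 and 31.0 CPM in WT vehicle libraries (0.11, adjusted p = 0.225). Stard4 had 78.7, 83.003 and 81.7 CPM in Irg1KO libraries, against 89.5, 86.7 and 85.3 CPM in WT vehicle libraries (-0.10, adjusted p = 0.124). Insig2 and Stard4 were separated between the genotypes but by too little to pass. The FPKM of Hmgcs1 over Insig1, a pair of SREBP2 targets, was 1.45 ± 0.108 in Irg1KO libraries and 1.03 ± 0.0878 in WT vehicle libraries. It was 1.27 ± 0.0213 in 4-OI libraries, also above WT vehicle without overlap, and 0.950 ± 0.0568 in hemin libraries.

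**Figure D4:**
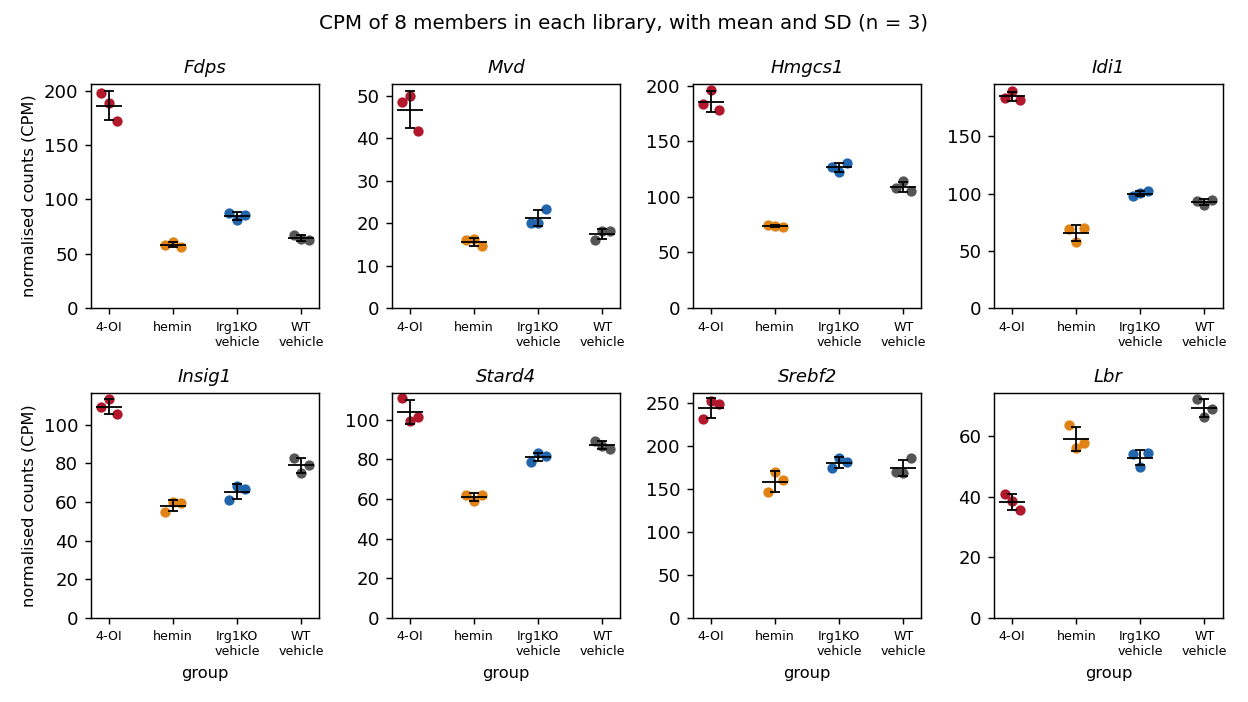
CPM (y axis, from 0) of 8 members in each library of the 4 groups, with points for libraries and black lines for the group mean ± SD (n = 3). Fdps, Mvd and Idi1 are highest in the 4-OI libraries, Hmgcs1, Stard4 and Insig1 are lowest in the hemin libraries, and Lbr is highest in the WT vehicle libraries.

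The 4-OI and hemin libraries were also compared with each other, since each differed from vehicle in its own way and the 2 comparisons above share the same vehicle libraries. The hours differ, 15 h with 4-OI and 12 h with hemin, as do the compounds. With 4-OI, 24 of 29 members were higher, 1 was lower and 4 did not pass, where 20.6% of all tested genes were higher, 21.7% lower and 42.3% passed in either direction. The median log2 fold change was 0.77 over the members and 0.0015 over all tested genes. At least 2-fold higher were 12 members and 2.62% of tested genes, and at least 2-fold lower were 0 members and 3% of tested genes. The groups did not overlap for 25 members, against 49.8% of tested genes. On log2(FPKM + 1), all tested genes were split into 1726 higher and 3490 lower, against 2500 and 2636 by the edgeR test, and 23 members were higher. Neutrophil markers summed to 338 to 361 CPM with 4-OI, against 95.2 to 105 CPM with hemin, with 2 of 5 tested higher. Most of that sum was Mmp8, at 313 ± 16.7 CPM with 4-OI and 91.9 ± 3.96 CPM with hemin. Endothelial markers summed to 7.67 to 8.80 CPM with 4-OI, against 15.8 to 16.9 CPM with hemin, with 2 of 3 tested lower. Most of each endothelial sum was Kdr. The part of either list in the members' difference was not tested.

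Fdps had 198, 189 and 172 CPM in 4-OI libraries, against 57.9, 60.6 and 56.6 CPM in hemin libraries (log2 fold change 1.68, SE 0.06, adjusted p = 1.01e-23). Mvd had 48.4, 49.9 and 41.8 CPM with 4-OI, against 16.01, 16.3 and 14.5 CPM with hemin (1.59, SE 0.09, adjusted p = 2.51e-17). Neither gene had passed the test between hemin and vehicle. Lss had 75.2, 78.9 and 74.8 CPM with 4-OI, against 24.2, 25.97 and 26.6 CPM with hemin (1.57, SE 0.07, adjusted p = 1.66e-20). Idi1 had 183, 189.5 and 182 CPM with 4-OI, against 69.1, 57.8 and 69.8 CPM with hemin (1.4995, SE 0.06, adjusted p = 3.29e-22). Idi1 had also passed as lower between hemin and vehicle. Hsd17b7 had 75.5, 71.4 and 79.0 CPM with 4-OI, against 28.6, 27.7 and 23.6 CPM with hemin (1.502, SE 0.07, adjusted p = 3.75e-19). Cyp51 had 174, 173 and 167 CPM with 4-OI, against 62.1, 63.5 and 62.1 CPM with hemin (1.45, SE 0.05, adjusted p = 3.37e-23). No library of one group reached the range of the other for any of these 6 genes.

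Hmgcs1 was higher by 1.34, Sc5d by 1.34, Nsdhl by 1.31, Msmo1 by 1.28 and Sqle by 1.17, and Tm7sf2 by 1.20 with a much larger SE of 0.39 (adjusted p = 0.0323). Tm7sf2 did not pass without 4-OI replicate 1 (1.20, adjusted p = 0.0719), 4-OI replicate 3 (1.05, adjusted p = 0.0794) or hemin replicate 2 (1.06, adjusted p = 0.107), and without hemin replicate 3 it was at 1.96. Among the regulators Insig1 was higher by 0.91 (SE 0.06, adjusted p = 1.37e-15), Stard4 by 0.77 (SE 0.06, adjusted p = 4.18e-14), Srebf2 by 0.62 (SE 0.05, adjusted p = 4.61e-12) and Insig2 by 0.24 (SE 0.07, adjusted p = 0.00677). The call for Insig2 was lost without 4-OI replicate 3 (0.19, adjusted p = 0.0526). Mbtps2, at 0.15 (adjusted p = 0.0345), passed in 5 of 15 alternatives and, with a library left out, only without 4-OI replicate 1. Lbr was the member that was lower, at 38.4 ± 2.57 CPM in 4-OI libraries and 59.2 ± 3.99 CPM in hemin libraries (-0.62, SE 0.07, adjusted p = 1.72e-09). Ggps1, Dhdds, Ebp and Mbtps1 did not pass, with log2 fold changes of 0.17, 0.01, -0.02 and 0.07, and Ggps1 passed without hemin replicate 1 (0.26, adjusted p = 0.0123).

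The neighbouring lipid genes did not all follow the cholesterol enzymes. The counts below stand against 25.4% of all tested genes higher and 25% lower with 4-OI, 9.48% and 7.74% with hemin, and 23.5% and 16.3% in Irg1KO. Of 14 genes of fatty acid synthesis and its regulator SREBP1, 12 rose and 0 fell with 4-OI (median 0.66), 7 rose and 1 fell with hemin (median 0.15), and 7 rose and 0 fell in Irg1KO (median 0.14). Acss2, which makes acetyl-CoA from acetate, averaged 91.4 ± 2.99 CPM with 4-OI, 14.4 ± 1.35 CPM with hemin, 11.3 ± 1.97 CPM in Irg1KO and 7.79 ± 0.940 CPM in WT vehicle libraries. Its 4-OI log2 fold change of 3.53 (SE 0.09, adjusted p = 2.66e-27) was larger than that of any cholesterol enzyme. Scd2, a fatty acid desaturase, rose by 2.04 with 4-OI, 0.94 with hemin and 1.10 in Irg1KO, and Me1, which makes NADPH for lipid synthesis, rose by 1.56, 0.93 and 1.06 in the same order. So with hemin Scd2 and Me1 rose while 10 cholesterol genes fell. In Irg1KO the desaturase Scd1 led the list at 2.21 (SE 0.09, adjusted p = 6.89e-22).

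LXR is the receptor that answers a surplus of oxysterols, and 6 of 8 genes of its list rose and 2 fell with 4-OI (median 0.53), 5 rose and 0 fell with hemin (median 0.30), and 3 rose and 1 fell in Irg1KO (median 0.14). The sterol exporter Abcg1 averaged 27.03 ± 1.67 CPM with 4-OI and 66.1 ± 12.3 CPM with hemin, and it stood at 19.5 ± 0.943 CPM with vehicle (log2 fold change with hemin 1.78, SE 0.10, adjusted p = 6.78e-12). Its partner Abca1 fell with 4-OI (-0.38, SE 0.05, adjusted p = 1.75e-08) and rose with hemin (0.74, SE 0.05, adjusted p = 5.8e-15). Mylip, which marks lipoprotein receptors for degradation, rose by 1.98 with 4-OI and by 0.50 with hemin, and by 0.22 in Irg1KO.

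Of 14 genes of sterol transport, esterification and oxidation, 3 rose and 2 fell with 4-OI, 4 rose and 1 fell with hemin, and 2 rose and 4 fell in Irg1KO, with medians of 0.05, -0.0072 and -0.01. With 4-OI both shares are below those of all tested genes. Ch25h, which makes the oxysterol that blocks SREBP2 processing, averaged 7.75 ± 1.41 CPM with 4-OI, 49.9 ± 6.86 CPM with hemin, 37.98 ± 2.57 CPM in Irg1KO and 66.8 ± 3.36 CPM in WT vehicle libraries. It was lower in all 3 comparisons with vehicle, with log2 fold changes of -3.10, -0.43 and -0.81 in that order. Lipa, the lysosomal lipase that frees cholesterol from its esters, rose by 1.34 with 4-OI and by 0.35 with hemin and fell by 0.14 in Irg1KO. Of 14 genes of sterol-driven degradation and SREBP escort, 6 rose and 4 fell with 4-OI, 3 rose and 0 fell with hemin, and 4 rose and 2 fell in Irg1KO. Rnf145, a ubiquitin ligase of the sterol response, fell by 0.51 with 4-OI and by 0.21 in Irg1KO. Of 22 tested genes that use isoprenoids for prenylation, ubiquinone or dolichol, 5 rose and 5 fell with 4-OI, 4 rose and 1 fell with hemin, and 1 rose and 3 fell in Irg1KO, with medians of -0.03, 0.03 and -0.09. With 4-OI the shares are near those of all tested genes in both directions. Pggt1b, a prenyltransferase subunit, fell by 0.33 with 4-OI (SE 0.06, adjusted p = 8.24e-06).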

How the data were processed

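Gene expression was read from 1 deposited table per library. The submitters' processing notes name RSEM, Bowtie2, StringTie and HISAT2 and the builds GRCm39 and mm39, without versions or roles. Values are deposited expected counts per gene, per the file headers, of which 90.62 to 92.03% are whole numbers, and deposited FPKM, per the file headers, which the authors scaled by transcript length and library total. Expected counts were rounded to whole numbers and fitted in R 4.3.3 with edgeR 4.0.16 (filterByExpr, TMM, robust quasi-likelihood F test) over all 12 libraries with 1 coefficient per group. P-values were adjusted by Benjamini-Hochberg over 12148 genes and passed under 0.05. CPM are TMM-scaled. TMM factors were 0.944 to 0.950 for 4-OI, 0.993 to 1.003 for hemin, 1.012 to 1.021 for Irg1KO and 1.033 to 1.050 for WT vehicle libraries. SE is the absolute log2 fold change over the square root of F. FPKM were used for levels between genes and, as log2(FPKM + 1), as an alternative with limma 3.58.1, and DESeq2 1.42.0 was another alternative. The test was checked on simulated data for 4-OI against WT vehicle, over 11747 genes tested. Of 100 genes changed by 0.5 on the log2 scale it called 69%, and of 100 changed by 1 it called 95%. It made 8 false calls among 11547 unchanged genes. The simulation changed only 200 genes, equally up and down, whereas 50.4% of tested genes passed with 4-OI. It therefore does not check the adjustment or the TMM scaling where so many genes change. The biological coefficient of variation was 4.71%. Values per library are given for the 6 called members with the largest change in each comparison and for Srebf2, Insig1, Insig2 and Stard4, and for context lists up to 3 genes by adjusted p. Lbr and Tm7sf2 with 4-OI, and context genes named beyond this rule, were chosen after their values were seen. Members and lists were chosen with earlier results of these data known. The settings varied were upper-quartile or RLE factors, DESeq2 in place of edgeR, log2 FPKM after adding 1 or 0.1, no filter, at least 10 counts in 6 samples, a fit of only the 6 libraries compared, a replicate block, and each library left out. Python 3.11.15, pandas 2.3.3 and matplotlib 3.10.9 were used for tables and figures. Promoter windows come from RefSeq, build GRCm38.p6. The lymphocyte marker list is not reported here.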

Additional observations from a re-analysis of the deposited data

How the results depend on the processing

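Called members passed in every one of 15 alternative settings for 23 of 26 with 4-OI, 6 of 10 with hemin, 8 of 11 in Irg1KO and 22 of 25 for 4-OI against hemin. Members lower with 4-OI numbered 3 on log2(FPKM + 1) and 3 on log2(FPKM + 0.1), against 1, and members lower in Irg1KO numbered 5 with RLE factors, against 3. With libraries left out in turn, members higher with 4-OI numbered 23 to 24, lower with hemin 7 to 9, higher in Irg1KO 6 to 9 and lower 2 to 3, and higher with 4-OI against hemin 21 to 24. Replicate numbers did not pair the libraries (correlations of deviations -0.079 to 0.067, and 4 of 12 libraries correlated best with their own number). With the replicate block, members higher and lower were 24 and 1 with 4-OI, 0 and 10 with hemin, 8 and 3 in Irg1KO, and 24 and 1 for 4-OI against hemin. Tm7sf2 lost its 4-OI call under the block (0.95, adjusted p = 0.0521) and in Irg1KO passed with no filter (0.53, adjusted p = 0.00572).

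Signs turned mainly for members near 0. With 4-OI these were Dhdds (RLE 0.0097, DESeq2 0.0096, at least 10 counts in 6 samples 0.0010), Mbtps1 (-0.054 and -0.057 with FPKM + 1 and + 0.1) and Mbtps2, called by the edgeR test on counts, at -0.013 and -0.013. With hemin they were Mbtps1 (upper quartile -0.0012, FPKM -0.056 and -0.058) and Scap (no filter 0.00039, block 0.0022). In Irg1KO they were Nus1 (-0.014, -0.014, -0.020, -0.021 and -0.015) and Dhcr7 (-0.017, -0.018, -0.018, -0.019 and -0.018) under RLE, DESeq2, FPKM + 1, FPKM + 0.1 and no filter. For 4-OI against hemin they were Ebp (RLE 0.0037, DESeq2 0.0039) and Dhdds (upper quartile -0.012, FPKM -0.065 and -0.068). With a library left out, ranges that crossed 0 were, with 4-OI, Dhdds -0.032 to 0.048 and Ebp -0.17 to 0.010. With hemin they were Dhcr7 -0.097 to 0.037, Dhdds -0.046 to 0.012, Ebp -0.15 to 0.029, Mbtps1 -0.044 to 0.061, Mbtps2 -0.016 to 0.0027, Mvk -0.14 to 0.027, Scap -0.013 to 0.015 and Tm7sf2 -0.997 to 0.12. In Irg1KO they were Acat2 -0.0042 to 0.099, Dhcr7 -0.064 to 0.069 and Nus1 -0.017 to 0.030, and for 4-OI against hemin Dhdds -0.019 to 0.061. The cause was not tested.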
